A study of Mus musculus with 36 samples.

Results

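The CA1 field of the hippocampus was compared between mice exposed to a context and mice left in the home cage, across all genes with enough counts to test. The libraries were chosen by their labels alone: 6 of the 36 libraries of the series, 3 after context exposure and 3 from the home cage. A further 3 CA1 libraries, from mice that received a foot shock and named fear in the labels, were part of the same fit. All mice were wild type on a BL/6 background, carried no transgene and were given no drug, as far as the labels say. They were housed singly and accustomed to the experimenter for 3 minutes a day on 5 days, home cage mice included, and tissue was taken 90 minutes after the behaviour. CA3, the lateral entorhinal cortex (LEC) and the medial entorhinal cortex (MEC) were sampled under the same conditions. Nothing in the labels says which mouse, or how many mice, a library came from. The p-values therefore speak only to library-to-library spread, which may be technical, and libraries of different regions may come from the same mice.

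CA1 is the output field of the hippocampal circuit. Its pyramidal cells take part in forming a memory of a place, and many of them fire as an animal explores a new environment. Firing opens calcium channels and NMDA receptors, and the calcium signal switches on rapid genes, most of them transcription factors such as Egr1 and Fos, through factors bound at cAMP response elements and CArG boxes. A later wave of genes encodes synaptic and signalling proteins such as Homer1 and Plk2, together with phosphatases and Sprouty and Spred proteins that damp the MAP kinase pathway.

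After context exposure, most delayed activity-regulated genes, MAP kinase inhibitors, sodium, calcium and HCN channel genes, synaptic adhesion genes and chaperones of the endoplasmic reticulum had positive differences from the home cage (21 of 32, 14 of 17, 16 of 20, 35 of 46 and 20 of 23), and 82 of 83 genes of cytosolic ribosomal proteins had negative ones. Rapid activity-regulated genes were mixed, with 14 of 22 positive and a median whose sign turned in 3 alternatives, and so were potassium channel genes, with 20 of 34 positive. No single gene reached the threshold. Of 16163 genes tested with edgeR, 0 had an adjusted p under 0.05, a background of 0% (smallest adjusted p = 0.104). An unadjusted p under 0.05 was reached by 3449 genes, of which 1899 (11.7%) were higher and 1550 (9.59%) lower after context exposure. DESeq2 called 990 genes in the same libraries, 658 higher and 332 lower. A fit of all 36 libraries with edgeR, which draws its estimate of spread from 4 regions, called 905 genes in CA1, 637 higher (3.56% of 17875 tested) and 268 lower (1.5%). The words higher and lower below therefore describe values, and the adjusted p of the fit of CA1 libraries stands beside them. The 3 context libraries lay wholly above the 3 home cage libraries for 2277 genes (14.1%) and wholly below them for 1730 (10.7%). Counts of list members given below are to be read against these shares of all genes. The median log2 difference of all genes was -0.05, and 45.2% of genes had a positive one. Every log2 difference here is context minus home cage unless another direction is given, every ± after one is a standard error, and levels are CPM, counts relative to library size after TMM scaling, which aligns the bulk of genes between libraries.

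Library totals in CA1 ran from 21915121 to 59356516 counts. Along the first principal component, which held 29.7% of the variance, the second context library (context 2) lay at -61.2 and the second home cage library (home cage 2) at 55.2. Home cage 3 lay at 36.6 and the remaining 6 libraries between -17.8 and 13.1. Mitochondrial genes took 6.17% to 6.34% of counts in context libraries and 7.49% to 12.1% in home cage libraries, the highest in home cage 2. Leaving both context 2 and home cage 2 out turned some directions and moved some values by more than 1.5 times. In most such cases the value in that reduced set is given too. In the reduced set edgeR called 0 genes and 1457 had an unadjusted p under 0.05. Leaving out home cage 1 gave 350 calls and leaving out home cage 3 gave 4, while leaving out any other single CA1 library gave 0.

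The dissected tissue carried the markers of its label, and those of neighbouring fields as well. All 10 CA1 pyramidal markers were detected, with a mean level of 6.91 to 7.36 log2 CPM in context libraries, 5.94 to 7.09 in fear libraries and 5.76 to 6.84 in home cage libraries. Their summed level was 1955 to 2596 CPM in context libraries and 889 to 1883 CPM in home cage libraries. All 10 had a positive log2 difference, with a median of 0.88, and it was 0.57 without context 2 and home cage 2. Dkk3, a secreted Wnt modulator, had 627, 640 and 511 CPM in context libraries and 404, 248 and 357 CPM in home cage libraries (0.82 ± 0.20, edgeR adjusted p = 0.104). The groups did not overlap for 5 of the 10, among them Dkk3, Man1a, Gpr161 and Ccn3. Context libraries lay wholly above home cage libraries for 14.1% of all genes. Wfs1, an endoplasmic reticulum protein that labels dorsal CA1, had 521, 457 and 363 CPM in context libraries against 384, 126 and 163 CPM in home cage libraries.

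Markers of neighbouring fields ran the other way. Of 11 dentate granule markers, 10 had a negative log2 difference and the median was -1.11. Their mean level was 3.8, 2.43 and 5.50 log2 CPM in context 1, 2 and 3, and 5.05, 5.50 and 6.10 in home cage 1, 2 and 3, so that context 2 held the least of them. The summed level was 221 to 822 CPM in context libraries and 525 to 1156 CPM in home cage libraries, and no marker was at 0 in all 6. In home cage 3 the mean level of the dentate granule markers, 6.10, was above that of the CA1 pyramidal markers, 5.90. In home cage 2 the levels were 5.50 and 5.76. The lists hold different genes, so these levels do not give a ratio of cells. Prox1, the transcription factor that defines granule cells, had 28, 23 and 142 CPM in context libraries and 80.9, 116 and 190 CPM in home cage libraries, with overlap between the groups. The 8 CA2 markers had a median of -0.52 and the 8 CA3 markers of -0.56, with 7 of 8 negative in each list. The CA2 median was -0.25 without context 2 and home cage 2. It turned to 0.04 with the dentate granule markers as a covariate and to 0.14 with the CA1 pyramidal markers. In bulk tissue, fewer cells of a type and less RNA per cell cannot be told apart. With the mean level of the dentate granule markers as a covariate, 0 genes were called by edgeR and 1339 had an unadjusted p under 0.05. With the CA1 pyramidal markers as the covariate, a check chosen after seeing the data, the counts were 0 and 942. The mean level of those markers was higher in every context library than in every home cage library. A fit with that covariate therefore cannot separate marker level from condition. The smaller differences it gives, here and below, do not decide between them.

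**Figure D1:**
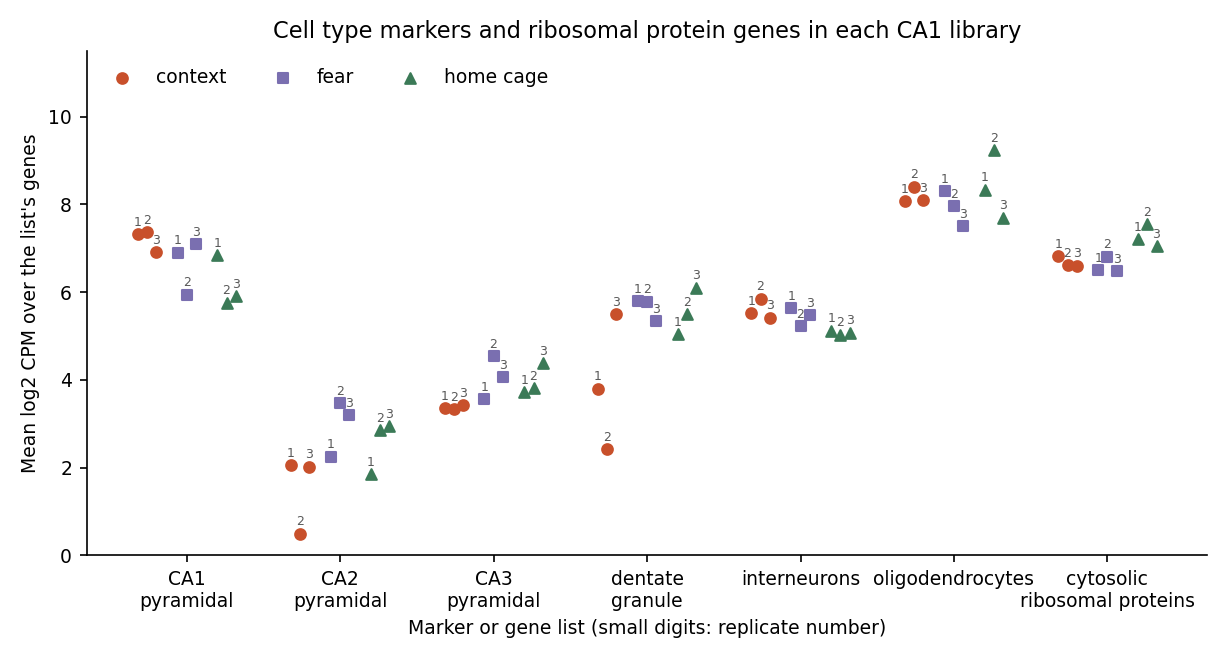
Mean log2 CPM (vertical axis) of 6 marker lists and of the cytosolic ribosomal protein genes in each of the 9 CA1 libraries, for context, fear and home cage from left to right, with the replicate number above each point. Context 2 has the lowest dentate granule level (2.43), home cage 2 the lowest CA1 pyramidal level (5.76), and all 3 home cage libraries have higher ribosomal protein levels (7.04 to 7.55) than the 3 context libraries (6.60 to 6.81).

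Interneuron markers were higher as well. Of 8 markers, 7 had a positive log2 difference (median 0.49), and their summed level was 644 to 804 CPM in context libraries and 414 to 514 CPM in home cage libraries. Gad2, which makes GABA, had 170, 221 and 170 CPM in context libraries and 121, 77.4 and 121 CPM in home cage libraries (0.81 ± 0.18, edgeR adjusted p = 0.104; 0.49 without context 2 and home cage 2). Gad1, the second GABA-making enzyme, had 300, 325 and 306 CPM in context libraries and 192, 179 and 258 CPM in home cage libraries (0.57 ± 0.14). The groups were apart for both, and also for Sst, the neuropeptide of one interneuron class, at 66.3, 117 and 64.6 CPM in context libraries against 40.4, 46.5 and 43 CPM in home cage libraries. Pvalb, the calcium buffer of fast-spiking interneurons, was not, with a log2 difference of -0.16 ± 0.19, and of 0.02 in the reduced set. Fear libraries had 182, 157 and 203 CPM of Gad2, all above the home cage libraries.

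The promoters of 3 activity-regulated genes described next are shown because they hold matches to elements known to drive activity-regulated genes. They were chosen after the values were seen. Each is 250 bases before to 50 bases after a gene start of RefSeq on GRCm38.p6, read 5′ to 3′ on the gene's plus strand, with matches in capitals. The letters searched, on both strands, were the full cAMP response element TGACGTCA, its core TGACG, the EGR site GCGTGGGCG, and the CArG box by name. A full element holds the core on both strands, so its matches overlap.
Homer1, chr13:93303507-93303806: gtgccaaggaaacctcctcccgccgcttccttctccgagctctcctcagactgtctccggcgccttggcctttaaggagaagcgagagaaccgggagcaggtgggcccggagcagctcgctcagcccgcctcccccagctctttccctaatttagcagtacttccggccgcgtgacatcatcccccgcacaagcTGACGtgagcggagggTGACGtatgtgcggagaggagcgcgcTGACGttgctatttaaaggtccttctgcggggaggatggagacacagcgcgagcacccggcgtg
Plk2, chr13:110394794-110395093: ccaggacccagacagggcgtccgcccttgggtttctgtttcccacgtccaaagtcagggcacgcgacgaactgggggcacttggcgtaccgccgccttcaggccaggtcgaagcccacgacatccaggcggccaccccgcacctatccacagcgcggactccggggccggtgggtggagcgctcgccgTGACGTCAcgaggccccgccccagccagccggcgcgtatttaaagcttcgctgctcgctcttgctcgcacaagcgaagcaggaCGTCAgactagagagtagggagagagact
Egr2, chr10:67537619-67537918: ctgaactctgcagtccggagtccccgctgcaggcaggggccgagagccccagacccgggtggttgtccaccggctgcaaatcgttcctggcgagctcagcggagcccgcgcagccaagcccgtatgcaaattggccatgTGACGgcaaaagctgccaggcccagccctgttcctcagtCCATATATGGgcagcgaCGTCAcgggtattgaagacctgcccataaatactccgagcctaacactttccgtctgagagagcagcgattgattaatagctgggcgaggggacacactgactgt
In the Homer1 window the capitals mark 3 core matches. In the Plk2 window they mark 1 full element and, near the 3′ end, a further core on the opposite strand. The Egr2 window has 2 cores, the second on the opposite strand, with a CArG box between them. Of the other 4 Egr2 windows, 2 overlap this one and hold the same matches, 1 has only a CArG box and 1 has no match. The other Homer1 window has no match, and Plk2 has 1 window. Matches did not mark all genes with positive differences, nor only those. The windows of Tent5a and Rasgrp1, with positive differences, have no match, and a window of Maff, with a negative one, holds a full element. Among all 32851 promoter windows, 1.79% held the full element, 20.8% the core, 1.63% a CArG box and 0.612% the EGR site. Among the 24 windows of 18 rapid activity-regulated genes these shares were 12.5%, 66.7%, 16.7% and 4.17%, and among the 37 windows of 25 delayed genes 10.8%, 37.8%, 0% and 0%. Overlapping windows of a gene were each counted. All rapid windows with a CArG box were those of Egr2, and the only one with an EGR site was a window of Maff. Egr1, Egr3 and Arc had no window among these, so their promoters were not searched. The shares of these 2 motifs therefore each rest on 1 gene. A match describes letters and does not show that a factor was bound.

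Among the rapid genes, those of the Egr family and Fosb had the largest positive differences. Egr1, a zinc finger transcription factor, had 243, 432 and 220 CPM in context libraries, 269, 113 and 242 CPM in fear libraries and 132, 66.0 and 87.1 CPM in home cage libraries. Every context library lay above every home cage library, with context 2 the highest, and fear 2 lay within the home cage range. The log2 difference was 1.65 ± 0.39 (edgeR adjusted p = 0.105; 0.0043 in the fit of 36 libraries), and 1.08 without context 2 and home cage 2. Egr2, of the same family, had 2.13, 20.1 and 3.48 CPM in context libraries and 1.78, 0.754 and 0.564 CPM in home cage libraries. Context 2 alone carried most of that gap: the log2 difference was 2.96 ± 0.83, and 1.17 without context 2 and home cage 2. Fosb, an AP-1 transcription factor, had 4.4, 13.8 and 4.93 CPM in context libraries and 3.36, 2.01 and 2.82 CPM in home cage libraries, a log2 difference of 1.47 ± 0.43, and of 0.58 in the reduced set. Egr3, which also regulates neuronal plasticity genes, had 35.5, 36 and 26.1 CPM in context libraries and 22.5, 7.42 and 17.9 CPM in home cage libraries (1.02 ± 0.36, and 0.61 in the reduced set).

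Ier5, an immediate early regulator, and Egr4, of the Egr family, also had context libraries wholly above home cage libraries, with log2 differences of 0.53 and 1.17. Other well known rapid genes did not separate the groups. Fos, the best known marker of firing neurons, had 5.04, 17.7 and 5.80 CPM in context libraries, 10.7, 6.24 and 8.12 CPM in fear libraries and 7.89, 5.83 and 6.11 CPM in home cage libraries. Context 1 and 3 lay below every home cage library, and the log2 difference of 0.51 ± 0.43 was -0.38 without context 2 and home cage 2. Arc, a synaptic capsid-like protein, had 133, 288 and 109 CPM in context libraries and 204, 81.6 and 66.0 CPM in home cage libraries, which overlapped (0.59 ± 0.52, and -0.16 in the reduced set). Npas4, a transcription factor of inhibitory synapse formation, had 24.1, 19.0 and 16.7 CPM in context libraries and 24.9, 11.3 and 14 CPM in home cage libraries (0.25 ± 0.26, and 0.06 in the reduced set). Of the 22 rapid genes, 6 were higher and 2 lower at an unadjusted p under 0.05, where 11.7% and 9.59% of all genes were. Context libraries lay wholly above home cage libraries for 6 of the 22, and for 14.1% of all genes. The 2 lower ones were Atf3, a stress-induced factor at under 3 CPM, and Maff. The list's median of 0.50, against -0.05 for all genes, turned to -0.06 without context 2 and home cage 2, to -0.07 with the dentate granule covariate and to -0.12 with the CA1 pyramidal covariate.

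**Figure D2:**
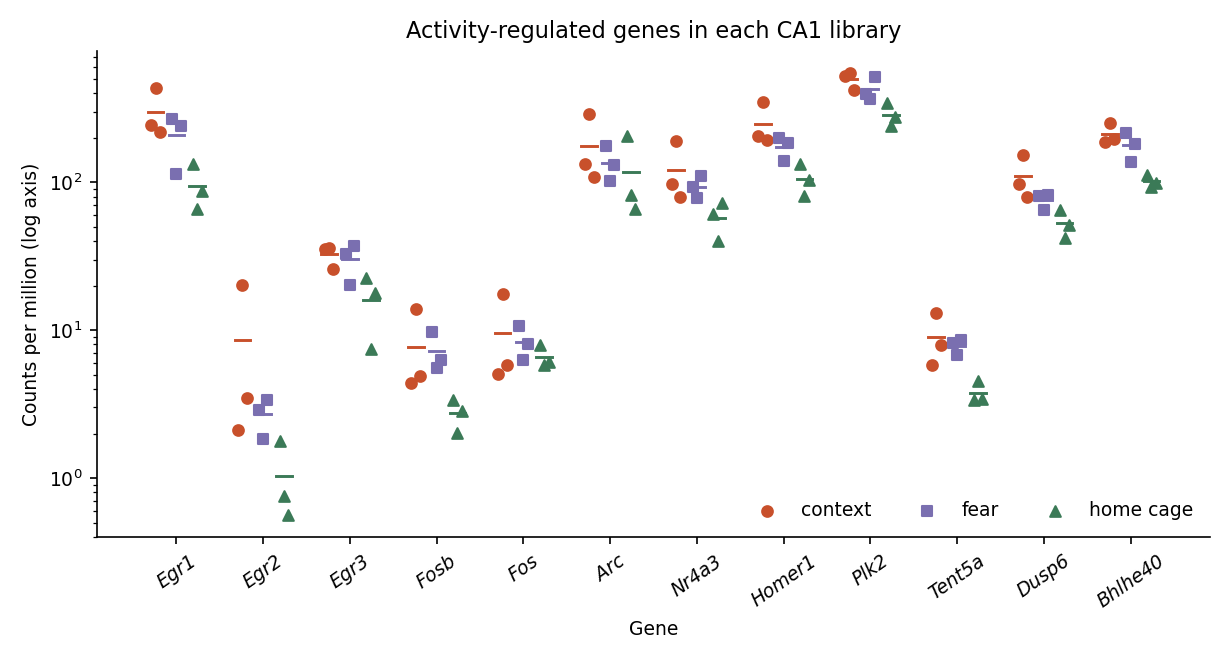
CPM (log axis) of 12 genes of the rapid, delayed, MAP kinase and clock lists in each CA1 library, with context left, fear in the middle and home cage right and short lines at the means. Context points lie above home cage points for Egr1, Egr2, Egr3, Fosb, Nr4a3, Homer1, Plk2, Tent5a, Dusp6 and Bhlhe40, and overlap them for Fos and Arc.

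Among the delayed genes, Homer1 had the smallest p. It encodes a scaffold of the postsynaptic density whose short form is made on activity and competes with the long ones. It had 205, 348 and 194 CPM in context libraries, 199, 139 and 183 CPM in fear libraries and 132, 80.7 and 104 CPM in home cage libraries. Context and fear libraries were all above the home cage libraries, and gene counts do not tell the short form from the long ones. The log2 difference was 1.23 ± 0.25 (edgeR adjusted p = 0.104), a fold of 2.35, and 0.76 without context 2 and home cage 2. Plk2, a kinase that lowers synaptic strength after activity, had 522, 549 and 418 CPM in context libraries, 395, 365 and 514 CPM in fear libraries and 343, 240 and 276 CPM in home cage libraries. Its log2 difference was 0.79 ± 0.17 (edgeR adjusted p = 0.104), with no overlap, and 0.60 in the reduced set. Tent5a, a poly(A) polymerase, had 5.82, 13.0 and 7.95 CPM in context libraries and 3.35, 4.53 and 3.43 CPM in home cage libraries (1.25 ± 0.28).

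Rasgrp1, a calcium-responsive activator of Ras, had 1522, 1559 and 1269 CPM in context libraries and 977, 634 and 926 CPM in home cage libraries (0.78 ± 0.18, edgeR adjusted p = 0.104). Sorcs3, a sorting receptor of the postsynapse, had 123, 126 and 100 CPM in context libraries and 72.6, 33.3 and 50.6 CPM in home cage libraries (1.15 ± 0.35). Neither gene had overlapping groups. Nr4a3 and Nr4a2, nuclear receptors induced by cAMP, had log2 differences of 1.08 ± 0.32 and 1.05 ± 0.36, and Nptx2, a secreted protein that clusters AMPA receptors, one of 0.74 ± 0.22. In the reduced set these were 0.41 for Nr4a3 and 0.49 for Nptx2. Nrn1, a surface protein that promotes neurite growth, ran the other way, with 125, 127 and 137 CPM in context libraries, 156, 229 and 174 CPM in fear libraries and 146, 180 and 232 CPM in home cage libraries (-0.52 ± 0.18; -0.34 with offsets for GC content and transcript length). Bdnf, the neurotrophin, had 46.3, 71.3 and 50.03 CPM in context libraries and 45.0, 38.4 and 57.1 CPM in home cage libraries, and its groups overlapped (0.25 ± 0.17, and -0.08 in the reduced set). Of 32 delayed genes, 12 were higher and 1 lower at an unadjusted p under 0.05, where 11.7% and 9.59% of all genes were. The list's median was 0.27. It was 0.11 without context 2 and home cage 2 and reached 0.34 in other alternatives.

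Inhibitors of the MAP kinase pathway had a median of 0.39 over 17 genes, and of 0.18 without context 2 and home cage 2. At an unadjusted p under 0.05, 7 were higher and 1 lower, where 11.7% and 9.59% of all genes were. Dusp6, a phosphatase that inactivates ERK, had 97.0, 153 and 79.1 CPM in context libraries, 80.1, 64.7 and 81.5 CPM in fear libraries and 65.0, 42.3 and 51.4 CPM in home cage libraries. Its groups did not overlap, and the log2 difference was 1.05 ± 0.23 (edgeR adjusted p = 0.104; 0.60 without context 2 and home cage 2). Spry4, a Sprouty inhibitor of receptor tyrosine kinase signalling, had 18, 24.3 and 19.6 CPM in context libraries and 11.8, 12.9 and 13.7 CPM in home cage libraries (0.69 ± 0.18). Spred1 and Spred2, which keep Raf from being activated, had log2 differences of 0.53 ± 0.15 and 0.55 ± 0.15, and that of Spred1 was 0.35 in the reduced set. Spry1 was the lower one, at 6.02, 4.19 and 5.96 CPM in context libraries and 4.95, 9.60 and 11.3 CPM in home cage libraries, and its groups overlapped.

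Of the 14 higher genes of smallest p, Bhlhe40 came first. It encodes a transcriptional repressor of the clock that also responds to neuronal activity, at chr6:108660629-108666925 on the plus strand of GRCm38. It had 189, 253 and 198 CPM in context libraries, 217, 137 and 182 CPM in fear libraries and 112, 92.6 and 99.3 CPM in home cage libraries. All context and fear libraries were above all home cage libraries, and the means were 213 ± 35.1 CPM in context and 101 ± 9.91 CPM in home cage (SD, n = 3 each). The log2 difference was 1.07 ± 0.17 (edgeR adjusted p = 0.104; 5.47e-05 with DESeq2), and 0.87 without context 2 and home cage 2. Of the clock genes, Per2, a core repressor, had 70.3, 67.2 and 61.3 CPM in context libraries and 52.4, 50.5 and 33.9 CPM in home cage libraries (0.54 ± 0.16). Of 19 clock genes, 3 were higher and 0 lower at an unadjusted p under 0.05, with a median of 0.24, or 0.05 without context 2 and home cage 2, a share near that of all genes. Bhlhe40 was 1 of the 3, and Nr1d1, a nuclear receptor that represses Bmal1, was another (0.40 ± 0.17; -0.09 with the CA1 pyramidal covariate).

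The other 13 were Pid1, Zfp804a, Rtl8c, Slc7a1, Alox12b, Phf8, Lrig1, Smcr8, Arhgef3, Rab8b, C2cd3, Man2a1 and Rab3b, all at an edgeR adjusted p of 0.104. Alox12b, a lipoxygenase known from the skin barrier, had the widest log2 difference, 1.59 ± 0.28, with 24.7, 21.4 and 16.8 CPM in context libraries, 11.2, 10.1 and 12.9 CPM in fear libraries and 10.3, 4.27 and 5.98 CPM in home cage libraries. Context libraries stood above all others for Alox12b, and fear 2 lay within the home cage range. Slc7a1, a transporter of cationic amino acids, had 44.9, 53.4 and 42.3 CPM in context libraries and 25.1, 23.6 and 31.2 CPM in home cage libraries (0.82 ± 0.14). Rab8b, a small GTPase of vesicle traffic, had 148, 175 and 124 CPM in context libraries and 96.3, 81.3 and 72.0 CPM in home cage libraries (0.84 ± 0.16). Rab3b, a GTPase of synaptic vesicles, had 32.4, 46.1 and 33.5 CPM in context libraries and 19.99, 18.7 and 25.3 CPM in home cage libraries (0.81 ± 0.16). Pid1, an adaptor that dampens insulin signalling, had 51.0, 50.5 and 42.8 CPM in context libraries and 30.6, 28.7 and 29.1 CPM in home cage libraries (0.71 ± 0.12). The rule that chose these genes required the groups to lie apart, so context libraries lay above home cage libraries for each of them. Of the 14, 13 were called in the fit of 36 libraries and 14 by DESeq2, and all kept their sign without context 2 and home cage 2. Both fits include the CA1 libraries that chose the genes, so these calls are not independent of the choice. The exception in the larger fit was Rtl8c, a retrotransposon-derived gene on the X chromosome (edgeR adjusted p = 0.174), which has near-identical neighbours and is uncertain.

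Of 20 sodium, calcium and HCN channel genes, 16 had a positive difference. At an unadjusted p under 0.05, 9 were higher and 1 lower, where 11.7% and 9.59% of all genes were. The list's median was 0.36, or 0.19 without context 2 and home cage 2 and 0.05 with the CA1 pyramidal covariate. Scn3b, an auxiliary subunit of sodium channels, had 751, 781 and 646 CPM in context libraries and 532, 437 and 474 CPM in home cage libraries (0.59 ± 0.14, edgeR adjusted p = 0.104). Scn2a, a pore-forming subunit, and Scn4b, an auxiliary one, had log2 differences of 0.55 ± 0.17 and 0.72 ± 0.22, and their groups did not overlap. Of 34 potassium channel genes, 20 had a positive and 14 a negative difference, 7 were higher and 1 lower at that threshold, and the median of 0.10 was -0.01 without home cage 2 and 0.03 in the reduced set. Kcnd2, the A-type channel, had 265, 295 and 255 CPM in context libraries and 188, 126 and 172 CPM in home cage libraries (0.75 ± 0.18). Kcnq5 and Kcnc2, a slowly opening and a fast-closing channel subunit, had log2 differences of 0.70 ± 0.17 and 0.57 ± 0.17, and that of Kcnc2 was 0.28 in the reduced set. Kcnq3, a subunit of the M-current, had 81.9, 98.1 and 82.7 CPM in context libraries and 51.4, 22.4 and 52.5 CPM in home cage libraries (1.05 ± 0.32; 0.67 in the reduced set), home cage 2 being lowest by far.

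Most receptor genes had positive differences, 18 of 24 for glutamate and 10 of 14 for GABA receptors. Of the 24 glutamate receptor genes, 6 were higher and 1 lower at an unadjusted p under 0.05, where 11.7% and 9.59% of all genes were. Their median transcript length was 5493.5 bases. Among all genes of at least 5161 bases, 24.9% were higher and 5.32% lower, so 6 of 24 is near the share for that length. The list's median was 0.28, or 0.11 with the CA1 pyramidal covariate. Gria1, the AMPA receptor subunit added to synapses during plasticity, had 1948, 1884 and 1829 CPM in context libraries, 1786, 1607 and 2175 CPM in fear libraries and 1390, 1062 and 1499 CPM in home cage libraries (0.52 ± 0.17, edgeR adjusted p = 0.126). Grm5, a metabotropic receptor, had 370, 432 and 388 CPM in context libraries and 317, 218 and 298 CPM in home cage libraries (0.51 ± 0.16; 0.30 in the reduced set). Context libraries lay above home cage libraries for both genes, and for Grin3a, an NMDA receptor subunit that limits calcium entry (0.40 ± 0.14; 0.22 in the reduced set and 0.27 with the offsets for GC content and length). Of 14 GABA receptor genes, 7 were higher and 1 lower, with a median of 0.40, or 0.21 without context 2 and home cage 2 and 0.09 with the CA1 pyramidal covariate. Gabrg3, a GABA-A subunit, had 30.8, 48.6 and 38.8 CPM in context libraries and 25.1, 16.6 and 19.3 CPM in home cage libraries (0.95 ± 0.25). Gabrb2, another GABA-A subunit, and Gabbr2, a GABA-B subunit, had log2 differences of 0.66 ± 0.19 and 0.57 ± 0.19, and in the reduced set of 0.40 for Gabrb2 and 0.35 for Gabbr2. The lower one was Gabrd, the subunit of extrasynaptic receptors that granule cells make in quantity, at 21.0, 21.6 and 30.4 CPM in context libraries and 31.3, 28.3 and 39.5 CPM in home cage libraries.

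Of 46 synaptic adhesion genes, 18 were higher and 0 lower at an unadjusted p under 0.05, and 17 had context libraries wholly above home cage libraries. Of all genes, 11.7% were higher, 9.59% lower and 14.1% wholly above. The list's median was 0.24, or 0.07 with the CA1 pyramidal covariate. Nrxn3, a presynaptic neurexin, had 289, 312 and 254 CPM in context libraries, 307, 271 and 378 CPM in fear libraries and 205, 127 and 193 CPM in home cage libraries (0.70 ± 0.18, edgeR adjusted p = 0.105; 0.45 without context 2 and home cage 2). Slitrk5, a postsynaptic organizer, had 132, 128 and 116 CPM in context libraries and 89.1, 62.4 and 87.3 CPM in home cage libraries (0.66 ± 0.16). The groups did not overlap for either gene, and home cage 2 was the lowest library for both. Clstn3, a calsyntenin that promotes synapse formation, had a log2 difference of 0.64 ± 0.19, and of 0.40 in the reduced set.

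The series title concerns Cbln4, a secreted synaptic organizer, and Neo1, the receptor neogenin. Neo1 (chr9:58874687-59036441, minus strand) had 116, 128 and 134 CPM in context libraries, 138, 116 and 141 CPM in fear libraries and 96.6, 104 and 105 CPM in home cage libraries. The groups did not overlap, and the log2 difference was 0.31 ± 0.11 (edgeR adjusted p = 0.163), 0.31 in the reduced set and 0.16 with offsets for GC content and transcript length. Cbln4 (chr2:172036233-172043466, minus strand) had 5.74, 5.17 and 3.11 CPM in context libraries, 3.56, 4.86 and 5.58 CPM in fear libraries and 1.87, 1.84 and 4.99 CPM in home cage libraries. Home cage 3 lay within the context range, and the log2 difference was 0.71 ± 0.39 (edgeR adjusted p = 0.311; 0.42 in the reduced set). Rgmb, a ligand of neogenin, had 38.3, 44.0 and 37.9 CPM in context libraries and 25.2, 17.9 and 33.3 CPM in home cage libraries (0.65 ± 0.20; 0.39 in the reduced set). Of 19 genes of this system, 3 were higher and 0 lower at an unadjusted p under 0.05, and 3 of 19 is near the 11.7% of all genes. The list's median was 0.15, and 0.28 in the reduced set. Grid1, a receptor for cerebellins, had a log2 difference of 0.55 ± 0.23 (0.29 in the reduced set) and context libraries above home cage libraries.

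Chaperones of the endoplasmic reticulum, which fold secreted and membrane proteins, were mostly higher. Of 23 genes, 9 were higher and 0 lower at an unadjusted p under 0.05, and 13 had context libraries wholly above home cage libraries. Of all genes, 11.7% were higher, 9.59% lower and 14.1% wholly above. The list's median of 0.25 stayed between 0.18 and 0.35 in all alternatives. Hyou1, a chaperone of the Hsp70 family, had 116, 113 and 109 CPM in context libraries, 127, 115 and 127 CPM in fear libraries and 83.7, 63.5 and 80.0 CPM in home cage libraries (0.57 ± 0.12, edgeR adjusted p = 0.104). Sel1l, part of the complex that removes misfolded proteins, had 292, 304 and 277 CPM in context libraries and 203, 136 and 205 CPM in home cage libraries (0.68 ± 0.17). Calr, the calcium-binding chaperone calreticulin, had 336, 409 and 337 CPM in context libraries and 256, 252 and 279 CPM in home cage libraries (0.46 ± 0.12). Hspa5, the chaperone BiP, had 237, 305 and 200 CPM in context libraries and 184, 189 and 175 CPM in home cage libraries (0.44 ± 0.17; 0.28 in the reduced set). Context and fear libraries lay above home cage libraries for all 4 of these genes. Of 22 cytosolic chaperones, 6 were higher and 0 lower, with a median of 0.14, or 0.09 in the reduced set. Hsp90ab1, a constitutive Hsp90, had 1920, 2054 and 1836 CPM in context libraries and 1343, 1191 and 1566 CPM in home cage libraries (0.50 ± 0.15), and Hspa4 and Hsph1, which help Hsp70 release its clients, had log2 differences of 0.45 ± 0.13 and 0.43 ± 0.14. In the reduced set these were 0.27 for Hspa4 and 0.24 for Hsph1.

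Coactivators of the factor CREB and genes of cAMP signalling had a median of 0.10 over 31 genes, or 0.05 without context 2 and home cage 2. At an unadjusted p under 0.05, 12 were higher and 1 lower, where 11.7% and 9.59% of all genes were. Ep300, a histone acetyltransferase that CREB recruits, had 105, 115 and 107 CPM in context libraries and 78.5, 57.8 and 77.7 CPM in home cage libraries (0.61 ± 0.15, edgeR adjusted p = 0.104). Pde10a, which breaks down cAMP and cGMP, had 150, 133 and 152 CPM in context libraries and 99.4, 80.6 and 108 CPM in home cage libraries (0.60 ± 0.14). Both were apart from the home cage range. Sort1, a sorting receptor for neurotrophins, had 995, 993 and 961 CPM in context libraries and 682, 476 and 680 CPM in home cage libraries (0.68 ± 0.18), and was 1 of 3 higher among 10 neurotrophin genes, with 1 lower. The lower one was the neurotrophin Ntf3, which CA2 and granule cells make, at 1.89, 0.0784 and 3.52 CPM in context libraries and 4.71, 11.9 and 11.8 CPM in home cage libraries. Of 23 genes of neuropeptides and their processing, 6 were higher and 1 lower, among the higher ones Vgf, a secreted peptide precursor, with 48.6, 59.1 and 37.8 CPM in context libraries and 33.5, 17.7 and 21.4 CPM in home cage libraries (0.99 ± 0.32; 0.65 in the reduced set). The lower one was Pdyn, the prodynorphin gene of granule cells, whose groups overlapped.

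Targets of the glucocorticoid receptor, which responds to the stress hormone corticosterone, had no shared direction. Of 22 genes, 4 were higher and 2 lower at an unadjusted p under 0.05, where 11.7% and 9.59% of all genes were. The list's median of 0.04 was 0.09 without context 2 and home cage 2 and -0.02 with the dentate granule covariate. Klf9, a transcription factor, had 170, 183 and 164 CPM in context libraries, 184, 158 and 213 CPM in fear libraries and 120, 111 and 147 CPM in home cage libraries (0.45 ± 0.14, edgeR adjusted p = 0.118). Sgk1, a kinase induced by the hormone, had 49.2, 58.1 and 50.5 CPM in context libraries, 94.4, 105 and 72.8 CPM in fear libraries and 40.8, 58.0 and 53.9 CPM in home cage libraries. Context and home cage libraries overlapped for Sgk1 (0.05 ± 0.16), and the 3 fear libraries lay above both. Mt1, a metallothionein that binds zinc, had a negative difference, with 59.6, 38.7 and 39.1 CPM in context libraries and 126, 79.8 and 52.1 CPM in home cage libraries (-0.91 ± 0.29). Its groups overlapped, as home cage 3 lay below context 1.

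**Figure D3:**
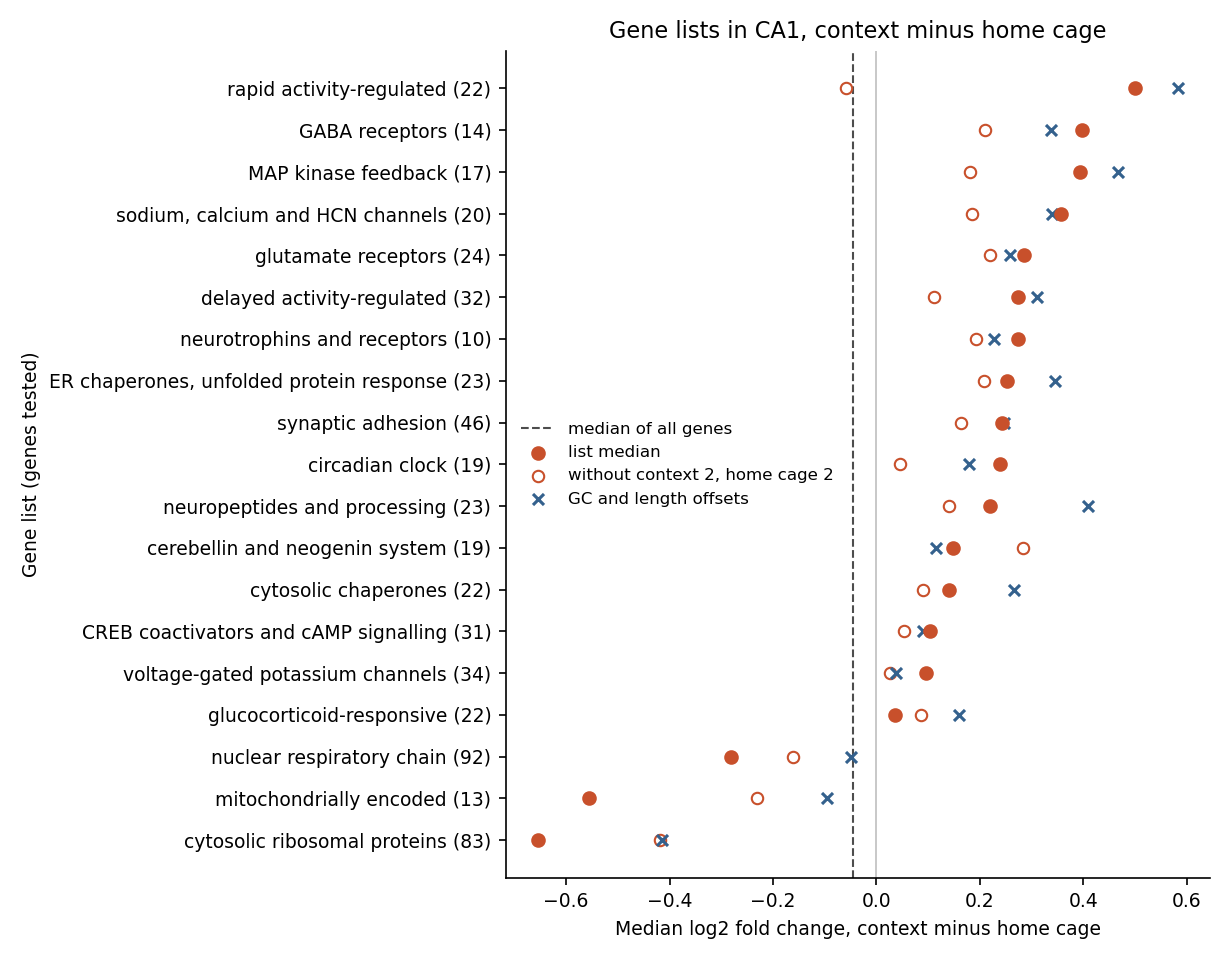
Median log2 difference, context minus home cage (horizontal axis), of each gene list in CA1 in the fit of 9 libraries (filled points), without context 2 and home cage 2 (open points) and with offsets for GC content and transcript length (crosses), beside the median of all genes (dashed line, -0.05). The rapid list stands at 0.50 in the fit of 9 libraries and at -0.06 without the 2 libraries, and the respiratory chain list at -0.28 and, with the offsets, at -0.05.

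Genes of cytosolic ribosomal proteins made up 9 of the 14 lower genes of smallest p, among them Rps21, Rps12, Rps28, Rps20, Rpl34, Rpl13, Rps18 and Rps10. Rps21, a protein of the small subunit (chr2:180257377-180258445, plus strand), had 60.2, 52.9 and 47.8 CPM in context libraries, 50.01, 56.6 and 43.0 CPM in fear libraries and 121, 126 and 78.0 CPM in home cage libraries. The groups were apart, and the log2 difference was -1.01 ± 0.18 (edgeR adjusted p = 0.104; 0.0568 in the fit of 36 libraries) and -0.88 without context 2 and home cage 2. Rps20 had 69.3, 62.0 and 66.7 CPM in context libraries and 106, 145 and 95.8 CPM in home cage libraries (-0.81 ± 0.16). Rpl34, of the large subunit, had 75.8, 66.0 and 67.9 CPM in context libraries and 140, 140 and 89.8 CPM in home cage libraries (-0.82 ± 0.16). Of 83 such genes, 82 had a negative log2 difference, 79 were lower and 0 higher at an unadjusted p under 0.05, and 75 had context libraries wholly below home cage libraries. Of all genes, 9.59% were lower at that threshold, 11.7% higher and 10.7% wholly below. The summed level of the 83 was 11621 to 13075 CPM in context libraries and 15777 to 22969 CPM in home cage libraries. The median was -0.65, against -0.05 for all genes, and -0.42 in the reduced set. It lay between -0.74 and -0.40 in all alternatives. The fit of 36 libraries called 1.5% of all genes lower, and 39 of the ribosomal protein genes. These genes have many processed copies in the genome, so reads shared with such copies are uncertain.

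The remaining 5 of the 14 were 1110059E24Rik, E130307A14Rik, Lama5, Zfp40 and Pnpla3. Lama5, a laminin chain of basement membranes, had 2.76, 2.66 and 3.27 CPM in context libraries, 6.50, 4.42 and 4.31 CPM in fear libraries and 6.25, 6.08 and 7.28 CPM in home cage libraries (-1.17 ± 0.24, edgeR adjusted p = 0.104; 0.35 in the fit of 36 libraries). Pnpla3, a lipase of lipid droplets, had 14.6, 10.7 and 15.4 CPM in context libraries and 22.9, 22.1 and 26.8 CPM in home cage libraries (-0.81 ± 0.17). Of the 14 lower genes, 9 were called in the fit of 36 libraries and 14 by DESeq2. They were chosen by smallest p and by groups lying apart in the CA1 libraries, which both fits include.

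Genes of the respiratory chain were lower too, by less. Of 92 nuclear genes, 32 were lower and 0 higher at an unadjusted p under 0.05, where 9.59% and 11.7% of all genes were. The list's median was -0.28, or -0.16 without context 2 and home cage 2 and -0.05 with offsets for GC content and transcript length. Cox6c, a subunit of cytochrome c oxidase, had 147, 127 and 115 CPM in context libraries and 179, 231 and 176 CPM in home cage libraries (-0.59 ± 0.15, edgeR adjusted p = 0.104). Of 13 genes of the mitochondrial genome, all had a negative log2 difference and 7 an unadjusted p under 0.05. mt-Nd1, a subunit of complex I, had 6882, 6951 and 6193 CPM in context libraries, 5592, 7888 and 6323 CPM in fear libraries and 8942, 13029 and 7933 CPM in home cage libraries (-0.58 ± 0.21; -0.37 in the reduced set and -0.15 with the offsets), home cage 2 being highest. The log2 difference was -0.49 ± 0.17 for mt-Nd6 and -0.66 ± 0.24 for mt-Nd3, of the same complex, and it was -0.29 for mt-Nd6 and -0.28 for mt-Nd3 in the reduced set, and 0.10 for mt-Nd6 and 0.0050 for mt-Nd3 with the offsets. The mitochondrial median of -0.56 was -0.23 without context 2 and home cage 2 and -0.10 with the offsets for GC content and length.

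The difference between groups moved with transcript length. Genes were put into 5 bins of equal size by length. In the bin of the shortest, up to 1784 bases, the median log2 difference was -0.25, with 2.19% of genes higher and 15% lower at an unadjusted p under 0.05. In the bin of the longest, from 5161 bases, it was 0.12, with 24.9% higher and 5.32% lower. Without context 2 and home cage 2 these medians were -0.14 and 0.07. The median length was 4676.5 bases for the 14 higher genes of smallest p and 1528.5 bases for the 14 lower ones. Ribosomal protein genes had a median length of 1106 bases, glutamate receptor genes of 5493.5 bases. It was 5577.5 bases for synaptic adhesion genes and 8384.5 bases for sodium, calcium and HCN channel genes. Counts of members of such lists are also to be read against the shares of these bins. With offsets for GC content and length, the medians of the 5 bins lay between -0.01 and 0.03 and edgeR called 0 genes, as without them. The offsets were fitted to length and GC content in these same libraries, so flat bins follow from the method. All 28 genes kept their sign with the offsets, Rps21 at -0.75 and Bhlhe40 at 1.14, and the ribosomal median was -0.41, the delayed 0.31. Whether RNA quality had a part in the length trend was not tested, and no measure of it was used here.

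**Figure D4:**
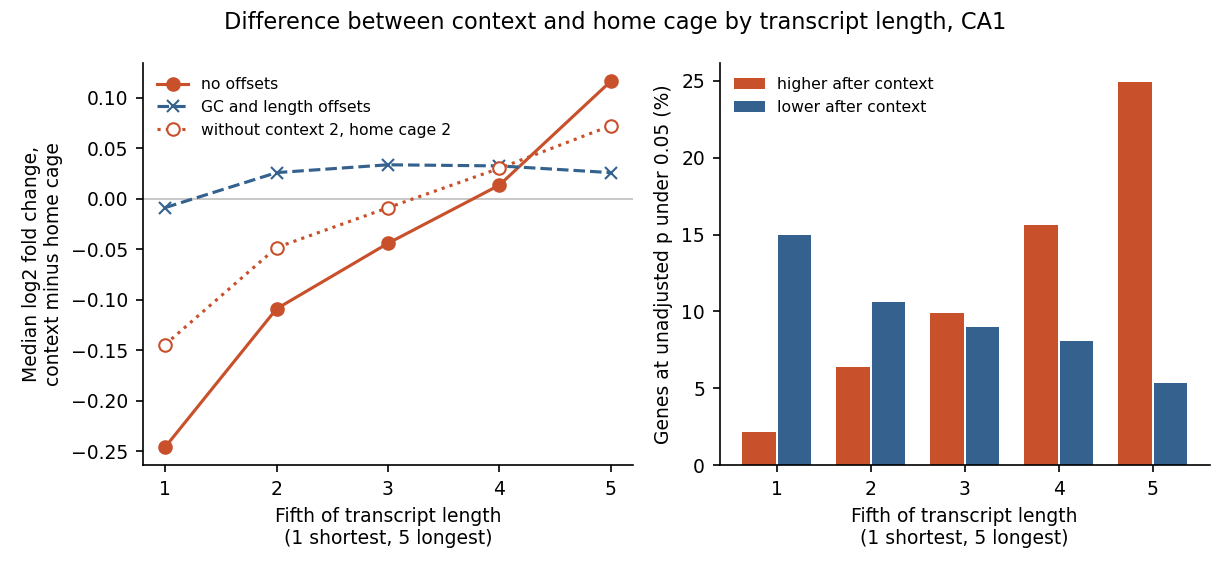
Left, median log2 difference, context minus home cage, by bin of transcript length from shortest (1) to longest (5), in the fit of 9 CA1 libraries, with offsets for GC content and length, and without context 2 and home cage 2. The offsets were fitted to the same libraries, so their flat line follows from the method. Right, the percentage of genes in each bin that were higher (left bars) or lower (right bars) after context at an unadjusted p under 0.05, from 2.19% and 15% in the shortest bin to 24.9% and 5.32% in the longest.

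Whether the shock added to the context was asked within CA1. The context animals and the fear animals differed in 0 genes at an adjusted p under 0.05 (edgeR; a background of 0%), in 918 genes at an unadjusted p under 0.05 (5.68%), and in 16 genes with DESeq2. Without context 3, edgeR called 3. The fear and context comparisons against home cage share the home cage libraries, so their values are given side by side only. The log2 difference from home cage of Bhlhe40 was 0.82 ± 0.17 after fear and 1.07 ± 0.17 after context. That of Homer1 was 0.71 ± 0.25 after fear and 1.23 ± 0.25 after context, and that of Plk2 was 0.57 ± 0.17 after fear and 0.79 ± 0.17 after context. For Rps21 it was -1.12 ± 0.18 after fear and -1.01 ± 0.18 after context.

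The context response of CA1 was also set against that of the other regions, as a difference of differences in the fit of 36 libraries. That fit had no offsets for GC content or length. Of 17875 genes, 0 differed from CA3 (4073 at an unadjusted p under 0.05; 373 with DESeq2), 1 differed from LEC (0.00559%; 14 with DESeq2) and 0 differed from MEC (1037 at an unadjusted p under 0.05; 3 with DESeq2). Without home cage 1 of CA1 there were 701 against CA3, and without context 3 of CA1 there were 101 against CA3, 35 against LEC and 28 against MEC. The gene called against LEC was Plb1, a phospholipase, and it was not called without context 2, home cage 2 or home cage 3 of CA1, where the count was 0 each time. It had 0.547, 0.233 and 0.500 CPM in context libraries of CA1 and 1.37, 2.68 and 3.18 CPM in home cage libraries of CA1. In LEC it had 1.54, 1.23 and 1.76 CPM in context libraries and 0.419, 1.31 and 0.742 CPM in home cage libraries, so CA1 was lower and LEC higher after context. The difference was -3.33 ± 0.57 on the log2 scale (edgeR adjusted p = 0.0359), at under 4 CPM in every library of both regions. Of smallest p against CA3 was Ntsr1, a neurotensin receptor, with 5.18, 4.54 and 2.46 CPM in context and 1.73, 1.30 and 1.52 CPM in home cage libraries of CA1, and 1.60, 0.965 and 1.06 CPM in context and 1.65, 4.69 and 1.54 CPM in home cage libraries of CA3 (difference 2.51 ± 0.47, edgeR adjusted p = 0.0989). Home cage 2 of CA3 carried the highest of the CA3 values. Against MEC the 3 genes of smallest p were Gm5844, Cep85 and Fam169b, at edgeR adjusted p-values of 0.246 to 0.294.

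Of the 28 genes of smallest p in CA1, 25 had the same sign in CA3, 25 in LEC and 28 in MEC, in libraries that may come from the same mice. Of all 17875 genes, 59.8% in CA3, 58.8% in LEC and 67% in MEC had the sign they had in CA1. Homer1 had a log2 difference of 1.21 ± 0.24 in CA3, 0.71 ± 0.24 in LEC and 1.17 ± 0.24 in MEC. Bhlhe40 had 0.31 ± 0.20 in CA3, 0.45 ± 0.20 in LEC and 0.77 ± 0.20 in MEC. Egr1 had 0.37 ± 0.27 in CA3, 1.13 ± 0.27 in LEC and 1.18 ± 0.27 in MEC. None of the 3 genes differed between CA1 and another region at an edgeR adjusted p under 0.05 (smallest 0.114). The ribosomal median was -0.81 in CA3, -0.24 in LEC and -0.43 in MEC. Other lists turned sign in CA3, where the rapid genes had a median of -0.26, neuropeptides of -0.36, genes of the mitochondrial genome of 0.08 and CA1 pyramidal markers of -0.35. The medians of the length bins, from shortest to longest, ran from -0.32 to 0.28 in CA3, from -0.07 to 0.06 in LEC and from -0.19 to 0.15 in MEC. By bins of GC content, from lowest to highest, they ran from 0.36 to -0.72 in CA3 and from -0.08 to -0.06 in CA1. The part of GC content in the CA3 values was not tested. Over all genes, Spearman's rank correlation of the CA1 response with that of CA3 was 0.25, with LEC 0.16 and with MEC 0.34, a description across genes, which are not independent replicates.

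**Figure D5:**
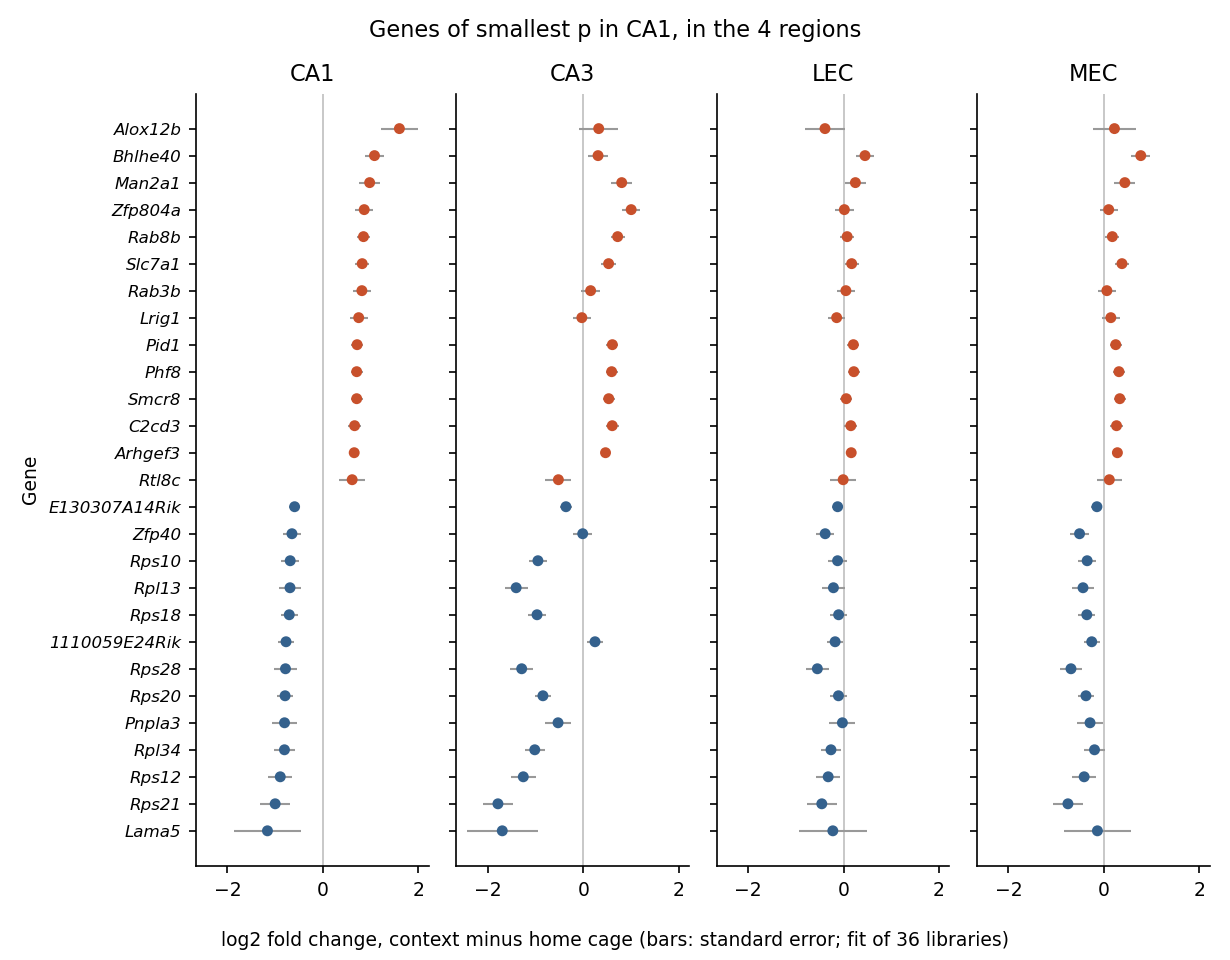
Log2 difference, context minus home cage, with standard errors, of the higher (upper rows) and lower (lower rows) genes of smallest p in CA1, with 1 lower gene not drawn, shown for CA1, CA3, LEC and MEC in the fit of 36 libraries. All genes drawn keep their CA1 sign in MEC, and the ribosomal protein genes drawn lie lower in CA3 than in CA1.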

How the data were processed

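Stranded poly(A)-selected RNA libraries of CA1 were analysed as gene counts deposited by the authors, unnormalized. Per the submitters' processing notes, Trimmomatic 0.33, STAR 2.7.10b and HTSeq 2.0.1 were used with the mouse build mm10. The settings, the annotation and the strand mode of counting are left unstated by those notes and the labels, so values of overlapping and antisense genes are uncertain. Counts of rows without a gene symbol made up 0.208% of the total and stayed in the tests.

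Groups came from the labels. The 9 CA1 libraries (3 a group, 6 residual degrees of freedom) were fitted with edgeR 4.0.16 (filterByExpr, TMM, robust quasi-likelihood test, Benjamini-Hochberg adjustment over 16163 genes, threshold 0.05), in R 4.3.3 with limma 3.58.1. Region differences were interactions in a fit of 36 libraries and 17875 genes. The biological coefficient of variation in CA1 was 0.209. An exact permutation test of 3 against 3 cannot go below p = 0.1, so none was used. Replicate libraries differed by more than counting noise, with a chi-square of 17.2 to 99.4 per degree of freedom, so no count column was treated as a repeat deposit of another, which does not show that libraries came from separate mice.

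Alternatives were RLE scaling, no filter, DESeq2 1.42.0, a replicate block, offsets for GC content and transcript length (splines with 5 degrees of freedom; 98.9% of genes had both), marker levels as covariates, other sets of libraries and each library left out. Gene length, GC content and coordinates came from GENCODE M21 on GRCm38, and promoters from RefSeq.

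The comparison, the gene lists and the marker lists were chosen with earlier results of these data known. The named genes were the 14 called genes of largest change in each direction that had a symbol, a mean log2 CPM of 2 or more and groups lying apart, or, as none was called, those of smallest p under the same conditions. Each pathway list gave its 3 members of smallest p, each region difference its called genes or the 3 of smallest p, and the series title gave Cbln4 and Neo1. Genes named beyond these were chosen after their values were seen. No called gene met the rule for promoters, so those shown were picked afterwards. A few genes that met these rules are not reported here.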

Additional observations from a re-analysis of the deposited data

Results flagged for a closer look

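Plb1, a phospholipase, was the gene whose context response differed between CA1 and LEC by a test of the difference itself. The response of CA1 minus that of LEC was -3.33 ± 0.57 on the log2 scale (edgeR adjusted p = 0.0359), made of -2.44 ± 0.41 in CA1 and 0.89 ± 0.40 in LEC. CA1 libraries held 26, 6 and 12 counts of it after context and 83, 66 and 73 counts in the home cage. The call was lost with the replicate number as a block and without context 2, home cage 2 or home cage 3 of CA1.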

How the results depend on the processing

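The count of genes called in CA1 between context and home cage, 0 in the fit of 9 libraries, was 197 with no filter on low counts, 990 with DESeq2 and 905 in the fit of 36 libraries, and ranged from 0 to 350 with 1 library left out. Between fear and context, also 0, it was 16 with DESeq2 and ranged from 0 to 3 with 1 library left out. For the difference from CA3, also 0, it was 2 with no filter and 373 with DESeq2, and 0 to 701 with 1 library left out. For LEC, with 1, it was 14 with DESeq2, 0 with the replicate block and 0 to 35 with 1 library left out. For MEC, with 0, it was 3 with DESeq2 and 0 to 28 with 1 library left out. The cause was not tested. With the replicate block, the comparison of context and home cage gave 0 calls and 3747 genes at an unadjusted p under 0.05. Deviations of same-numbered context and home cage libraries correlated at 0.36, 0.0025 and 0.34 for numbers 1, 2 and 3. Those of libraries with different numbers correlated at -0.38 to 0.085, so numbers 1 and 3 stood above them and number 2 did not. Whether the numbers pair libraries was not tested. The labels do not say what the numbers mark, so the main fit had no block.

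Of 82 genes named, 52 were called in the fit of 36 libraries, 70 by DESeq2, 40 with no filter and 35 without home cage 1. Most of the 82 were picked by smallest p in the same CA1 libraries. Signs turned for Nr1d1, at -0.088 with the CA1 pyramidal covariate, for mt-Nd6, at 0.098 with the offsets for GC content and length and 0.10 with offsets and replicate block, and for mt-Nd3, at 0.0050 and 0.014. Medians of gene lists moved by more than the spread between libraries in 61 recomputed values and stayed within it in 679. Plb1 rests on as few as 6 counts in a library, and the effect of depth was not tested.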

Other observations

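Markers of other cell types in and around the dissected tissue had these values. The summed level of 9 oligodendrocyte markers was 5671 to 6863 CPM in context libraries and 4258 to 13051 CPM in home cage libraries, the highest in home cage 2. The median log2 difference was -0.30 and 0.04 without context 2 and home cage 2. The 5 ependymal markers, genes of the ciliated cells that line the ventricles, summed to 3.55 to 5.25 CPM in context libraries and 3.68 to 17.4 CPM in home cage libraries, with a median of -2.29, which was 0.54 with the CA1 pyramidal covariate. Choroid plexus markers had a median of -0.41 and of 0.51 without context 2 and home cage 2, microglial markers of -0.27 and -0.01, and blood markers of -0.79 and -1.17, in the same order. The 8 astrocyte markers had a median of -0.04, and of 0.09 without those libraries, and 6 endothelial markers of -0.38 and -0.03. Markers of the meninges and mural cells had -0.64, and -0.09 without them. Thalamic markers had -0.74 and, without them, -0.36. Striatal markers had -0.12 and -0.23, neocortical markers -0.36 and 0.03, subicular markers -0.13 and 0.39, and oligodendrocyte precursors 0.19 and 0.29, again with the value of all 9 libraries before that without the 2. The subicular median changed sign in 6 alternatives. Of the other marker lists, Gbx2 of the thalamic list was too low to test and no marker was at 0 in all 6 libraries. The part of these cells in the differences described was not tested beyond the covariate fits. The fit with the CA1 pyramidal markers cannot separate marker level from condition.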
